A study of Mus musculus with 8 samples.

Results

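The CHD genes encode chromodomain helicase DNA-binding proteins, and 7 of them, Chd1, Chd2, Chd3, Chd4, Chd5, Chd7 and Chd8, were taken by name from the 15519 mouse genes of the deposited table. They were compared between 2 classes of place cells, hippocampal neurons that fire when the animal is at a certain location. The classes were Recurring place cells (4 libraries) and Day 0 place cells (4 libraries), and the labels do not define them beyond these names. Every library held nuclear RNA of wild-type mouse hippocampal pyramidal cells, whose nuclei were tagged with light after imaging of their activity during navigation and then collected. The titles carry a different mouse number for each library, and the labels give no age, sex, batch or number of nuclei. Whether each library is a separate animal is not stated further, so the p-values speak of the spread among these 8 libraries, part of which may be technical.

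CHD proteins use ATP to slide, space or evict nucleosomes, and their paired chromodomains help them bind chromatin. The family falls into subgroups by domain structure. Chd1 and Chd2 travel with transcribing RNA polymerase, Chd3, Chd4 and Chd5 are alternative motors of the NuRD histone deacetylase complex, and Chd6 to Chd9 are large proteins of promoters and enhancers. In humans, variants in CHD2 are a cause of childhood epilepsy, variants in CHD7 of CHARGE syndrome and variants in CHD8 of a form of autism. In mouse cerebellum, NuRD with Chd4 switches off activity-induced genes after a stimulus.

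The libraries held 8374986 to 14887866 reads assigned to genes, with 10718 to 13807 genes detected. Values below are normalized counts, which are reads divided by a size factor for each library, so they correct for depth but not for gene length. The labelled cell type was checked first. The 8 pyramidal neuron markers, Slc17a7 and Neurod6 among them, were read in all 8 libraries, and their summed normalized counts were 27082 to 46744 in Recurring libraries and 27981 to 41016 in Day 0 libraries. Zbtb20 made the largest part of these sums, with means of 21775 in Recurring and 17188 in Day 0 libraries. Of the 8 markers, 4 had a higher and 4 a lower mean log2 value in Recurring libraries, with a median difference of 0.149. Camk2a, a kinase gene of excitatory neurons, was the 1 of 8 lower without overlap, beside 1.17% of all tested genes. Its means were 2647 ± 974 in Recurring libraries and 5629 ± 2589 in Day 0 libraries (SD, n = 4 each). Its log2 difference was -1.09 ± 0.42 (SE), with an unadjusted p of 0.0191 in limma, where the adjusted p was 0.981. Camk2a was also the 1 of 8 with an unadjusted p under 0.05, beside 1.74% of all tested genes that were lower with such a p. Markers of other cells were also read. Of 8 microglia markers 4 were in the table, each at 0 in at least 1 library, with sums of 507 to 4331 in Recurring libraries, against 0 to 310 in Day 0 libraries. These 2 ranges did not overlap. Of 3 microglia markers tested, 3 had a higher mean in Recurring libraries. In limma 2 of the 3 were higher with an unadjusted p under 0.05, C1qb and Ctss, beside 1.88% of all tested genes. C1qb was the 1 of 3 higher without overlap, beside 1.24% of all tested genes. In Day 0 replicates 1 to 4, C1qb had 0, 50.2, 0 and 0 normalized counts, and Ctss 278, 259, 0 and 0. Both passed the filter for testing through the Recurring libraries, where they are high. Of 8 astrocyte markers 7 were in the table, 4 of them at 0 in some library, with sums of 1342 to 11989 in Recurring libraries and 409 to 1565 in Day 0 libraries. Of 8 interneuron markers 7 were in the table, 6 of them at 0 in some library, with sums of 264 to 7472 in Recurring libraries and 213 to 2196 in Day 0 libraries. Both sums overlapped between the classes, and in both lists most tested genes had a higher mean in Recurring libraries. Of 6 astrocyte markers tested, 5 had a higher mean in Recurring libraries, and the median log2 difference was 3.29. In limma 3 of the 6 were higher with an unadjusted p under 0.05, beside 1.88% of all tested genes. Without overlap 2 were higher, Slc1a3 and Plpp3, beside 1.24% of all tested genes. Plpp3 had 0, 174, 0 and 10.02 normalized counts in Day 0 replicates 1 to 4. Aldh1l1, also under that p, had 0, 35.1, 0 and 0 normalized counts in Day 0 replicates 1 to 4. Plpp3 and Aldh1l1 passed the filter for testing through the Recurring libraries, where they are high. The counts and the median of the tested astrocyte markers take in both genes. Of 5 interneuron markers tested, 4 had a higher and 1 a lower mean in Recurring libraries, and 0 had an unadjusted p under 0.05 in limma. Their log2 differences ran from -0.66 to 3.17, with a median of 0.08. Of 7 oligodendrocyte markers 6 were in the table, 3 of them at 0 in some library, with sums of 1246 to 6848 in Recurring libraries and 1354 to 10066 in Day 0 libraries. Endothelial markers, 4 of 5 in the table, summed to 0 to 548 in Recurring libraries and 114 to 486 in Day 0 libraries. The part of these cells in the values of the CHD genes was not tested. In pooled nuclei, fewer nuclei of a type and less RNA per nucleus cannot be told apart.

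All 7 CHD genes passed the filter for testing, which asked for 10 or more normalized counts in 4 or more of the libraries. limma, a linear model fitted across all genes, called 0 of the 7 different between the classes at an adjusted p under 0.05. The share called among all 11078 genes tested was 0%, and no gene had an adjusted p below 0.981. Before adjustment, limma gave a p under 0.05 to 0 of the 7 members and to 401 genes, or 3.62%, of all tested (1.88% higher and 1.74% lower in Recurring libraries). limma's voom, run on the reads as a second method, also called 0 genes, with 518 at an unadjusted p under 0.05. The mean log2 value was higher in Recurring libraries for 2 members, Chd1 and Chd8, and lower for 5, with a median difference of -0.36. Among all tested genes 50.1% had a higher mean in Recurring libraries, and the median difference was 0.005. In no member did the Recurring and Day 0 values separate without overlap, which was so for 267 genes, or 2.41%, of all tested (1.24% higher and 1.17% lower in Recurring libraries). All differences are Recurring minus Day 0 on the scale of log2(normalized count + 1), which understates the change of genes with low counts.

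**Figure D1:**
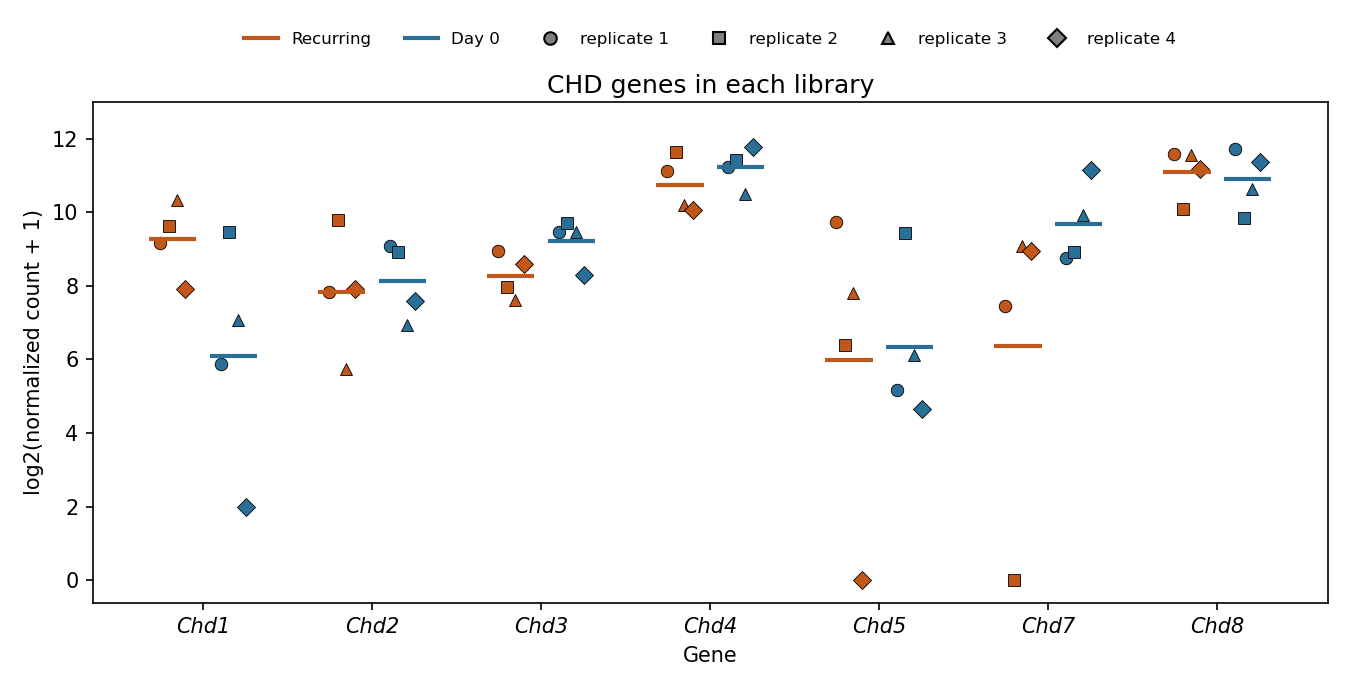
Normalized counts of the 7 CHD genes on the log2(normalized count + 1) scale, 1 point per library, with Recurring left of Day 0 for each gene and a line at each group's mean (n = 4 each). The points of the classes overlap for every gene, and Chd5 and Chd7 each have 1 Recurring library at 0.

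Promoter sequences are shown for Chd4, Chd5 and Chd8, the 3 of 7 members with a window. Among the members, Chd4 and Chd8 had the smallest standard errors in limma and Chd5 had the largest. Each window is the 250 bases before an annotated start, 5′ to 3′ on the strand of the gene, from RefSeq on GRCm38.p6. Chd4 and Chd5 each had 2 windows, of which that of the most upstream start is shown and searched, and Chd8 had 1. Capitals mark TGACG on either strand, the core of the site to which the activity-regulated factor CREB binds. These windows lie at chr6:125095731-125095980 on the + strand for Chd4, chr4:152338401-152338650 on the + strand for Chd5 and chr14:52257761-52258010 on the - strand for Chd8.
Chd4: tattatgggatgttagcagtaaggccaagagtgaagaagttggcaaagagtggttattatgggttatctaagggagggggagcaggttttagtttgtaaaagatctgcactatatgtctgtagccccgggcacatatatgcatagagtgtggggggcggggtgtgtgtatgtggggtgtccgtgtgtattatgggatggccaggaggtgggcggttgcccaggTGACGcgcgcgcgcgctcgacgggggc
Chd5: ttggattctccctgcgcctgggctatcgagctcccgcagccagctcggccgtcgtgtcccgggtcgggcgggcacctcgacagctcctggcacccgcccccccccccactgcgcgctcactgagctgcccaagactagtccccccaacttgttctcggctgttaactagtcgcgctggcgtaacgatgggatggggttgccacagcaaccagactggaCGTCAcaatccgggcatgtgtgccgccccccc
Chd8: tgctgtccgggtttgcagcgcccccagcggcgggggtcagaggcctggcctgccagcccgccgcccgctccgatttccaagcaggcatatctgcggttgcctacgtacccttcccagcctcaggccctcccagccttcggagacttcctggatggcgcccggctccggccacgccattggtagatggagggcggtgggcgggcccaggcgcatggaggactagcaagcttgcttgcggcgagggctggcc
Chd4 and Chd5 each held 1 TGACG and Chd8 held 0, while 17.8% of 32851 windows of the same length held it on either strand. The full palindrome TGACGTCA, which contains that core, was found in none of the 3 windows (0 of 3) and in 1.55% of all windows. GGGCGG, a motif of housekeeping promoters searched on both strands, was found 2 times for Chd4, 3 times for Chd5 and 3 times for Chd8, and 32.7% of all windows held it. CG dinucleotides numbered 12 for Chd4, 21 for Chd5 and 20 for Chd8, against a median of 6 in all windows. These matches describe the letters and do not show binding. Chd1, Chd2, Chd3 and Chd7 had no window among those used.

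Chd1 and Chd2 belong to the same subgroup of the family. Chd1 binds histone H3 trimethylated at lysine 4 and spaces nucleosomes behind the polymerase. It had 573, 784, 1288 and 241 normalized counts in Recurring replicates 1 to 4, against 57.3, 707, 134 and 3.01 in Day 0 replicates 1 to 4. All 4 Recurring libraries lay above 3 of the Day 0 libraries, and Day 0 replicate 2 lay among them. Chd1 averaged 722 ± 439 normalized counts in Recurring libraries and 225 ± 326 in Day 0 libraries (SD, n = 4 each), a ratio of means of 3.20. The log2 difference was 3.16 ± 1.52 (SE), with a 95% interval of -0.05 to 6.36 and, in limma, an unadjusted p of 0.0534, where the adjusted p was 0.981. It was 1.79 without Day 0 replicate 4, where Chd1 had 3 reads. Without Day 0 replicate 2 it was 4.28. The unadjusted p in limma was 0.12 without Day 0 replicate 4 and 0.0236 without Day 0 replicate 2. It was 0.178 with library weights and 0.0791 with voom, and lay under 0.05 in 4 of the 17 alternatives in which Chd1 was tested.

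Chd2, which helps to deposit the histone variant H3.3, had 227, 875, 53.0 and 241 normalized counts in Recurring replicates 1 to 4, against 540, 483, 122 and 192 in Day 0 replicates 1 to 4. The highest and the lowest of the 8 values were both in Recurring libraries. Its log2 difference was -0.31 ± 1.20 (SE), with a 95% interval of -2.84 to 2.22 and an adjusted p of 0.998 in limma. The direction turned when Recurring replicate 3 was left out, to 0.38. Chaserr, a long noncoding RNA that starts just upstream of Chd2 and limits its expression in mice, had 1168, 3237, 1702 and 437 normalized counts in Recurring replicates 1 to 4. In Day 0 replicates 1 to 4 it had 526, 958, 719 and 2019, and the classes overlapped. The Chaserr difference was 0.49 ± 0.68 (SE), with a 95% interval of -0.95 to 1.92 and an unadjusted p of 0.485 in limma. In the GENCODE vM21 annotation the 2 genes share 2628 exonic bases on the same strand, 18.4% of the exonic length of Chd2, and reads in that stretch cannot be assigned to either with certainty. Across the 8 libraries the log2 values of Chd2 and Chaserr had a Pearson's r of 0.0448 (exact permutation p = 0.918, adjusted p = 0.988) and a Spearman's rho of -0.0476 (exact permutation p = 0.935, adjusted p = 0.977). Without the 2 libraries farthest from the median of Chd2, r was -0.256.

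Of the 3 NuRD motors, Chd3 and Chd4 are widely expressed and Chd5 is enriched in neurons. Chd4 had 2241, 3157, 1166 and 1062 normalized counts in Recurring replicates 1 to 4, against 2374, 2757, 1452 and 3465 in Day 0 replicates 1 to 4. The 2 lowest libraries were Recurring, and the other Recurring libraries lay within the Day 0 range. Chd4 averaged 1907 ± 990 in Recurring libraries and 2512 ± 839 in Day 0 libraries (SD, n = 4 each). Its log2 difference was -0.48 ± 0.49 (SE), with a 95% interval of -1.51 to 0.56 and an adjusted p of 0.982 in limma. This was among the more precise estimates, with a larger standard error in 93.8% of all tested genes.

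Chd3 had 490, 250, 196 and 383 normalized counts in Recurring replicates 1 to 4, against 700, 840, 700 and 312 in Day 0 replicates 1 to 4. Day 0 replicate 4 was the only Day 0 library within the Recurring range, and the other 3 Day 0 libraries lay above it. The means were 330 ± 133 in Recurring libraries and 638 ± 227 in Day 0 libraries (SD, n = 4 each), a ratio of 0.517. The log2 difference was -0.95 ± 0.84 (SE), with a 95% interval of -2.72 to 0.83 and an adjusted p of 0.981 in limma.

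Chd5 had 842, 82.3, 222 and 0 normalized counts in Recurring replicates 1 to 4, against 34.9, 686, 68.1 and 24.1 in Day 0 replicates 1 to 4. In each class 1 library stood high, Recurring replicate 1 and Day 0 replicate 2. The 0 in Recurring replicate 4 allows up to 3 reads, or 3.04 normalized counts, by counting error alone. The log2 difference was -0.36 ± 2.30 (SE), with a 95% interval of -5.21 to 4.49 and an adjusted p of 0.998 in limma. Its sign was not settled, since the difference was 1.63 without Recurring replicate 4, 0.68 without Day 0 replicate 2 and -1.60 without Recurring replicate 1. With a pseudocount of 8 it was 0.24.

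Chd7 and Chd8 belong to the subgroup of large CHD proteins. Chd7, which binds enhancers marked by monomethylated histone H3 lysine 4, had 175, 0, 538 and 488 normalized counts in Recurring replicates 1 to 4. In Day 0 replicates 1 to 4 it had 434, 486, 961 and 2280. The 2 highest libraries were Day 0 and the 2 lowest were Recurring, with overlap between them. Chd7 averaged 300 ± 257 in Recurring libraries and 1040 ± 860 in Day 0 libraries (SD, n = 4 each), a ratio of means of 0.289. The log2 difference was -3.32 ± 1.68 (SE), with a 95% interval of -6.86 to 0.22 and, in limma, an unadjusted p of 0.064, where the adjusted p was 0.981. In Recurring replicate 2, 0 of 12234631 reads fell on Chd7, which allows up to 3 reads, or 2.42 normalized counts, by counting error alone. Without that library the difference was -1.20. The same library had the highest sum of interneuron markers, 7472, and the part of that in the Chd7 value was not tested.

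Chd8, a regulator of Wnt signalling and of other chromatin genes, had 3057, 1093, 3011 and 2304 normalized counts in Recurring replicates 1 to 4. In Day 0 replicates 1 to 4 it had 3376, 910, 1579 and 2654. The highest and the lowest values were both in Day 0 libraries, so the Recurring values lay wholly within the Day 0 range. Its log2 difference was 0.21 ± 0.52 (SE), with a 95% interval of -0.88 to 1.31 and an adjusted p of 0.998 in limma. It was -0.14 without Day 0 replicate 2. GENCODE vM21 places the antisense gene Gm26590 across 953 exonic bases of Chd8, 5.77% of its exonic length, and the sources do not say whether strand was used in counting.

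Chd6 and Chd9, the remaining genes of this subgroup, did not pass the test either. Chd6 had 2203, 4003, 3467 and 4181 normalized counts in Recurring replicates 1 to 4, against 3171, 1791, 4127 and 2499 in Day 0 replicates 1 to 4. Its difference was 0.28 ± 0.40 (SE), with a 95% interval of -0.56 to 1.13, and 97.4% of tested genes had a larger standard error. Chd9 had 1838, 150, 613 and 1671 normalized counts in Recurring replicates 1 to 4, against 1001, 567, 1993 and 1246 in Day 0 replicates 1 to 4. Its low value, like that of Chd7, was in Recurring replicate 2. The Chd9 difference was -0.58 ± 0.79 (SE), with a 95% interval of -2.24 to 1.09, and it was 0.18 without that library.

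**Figure D2:**
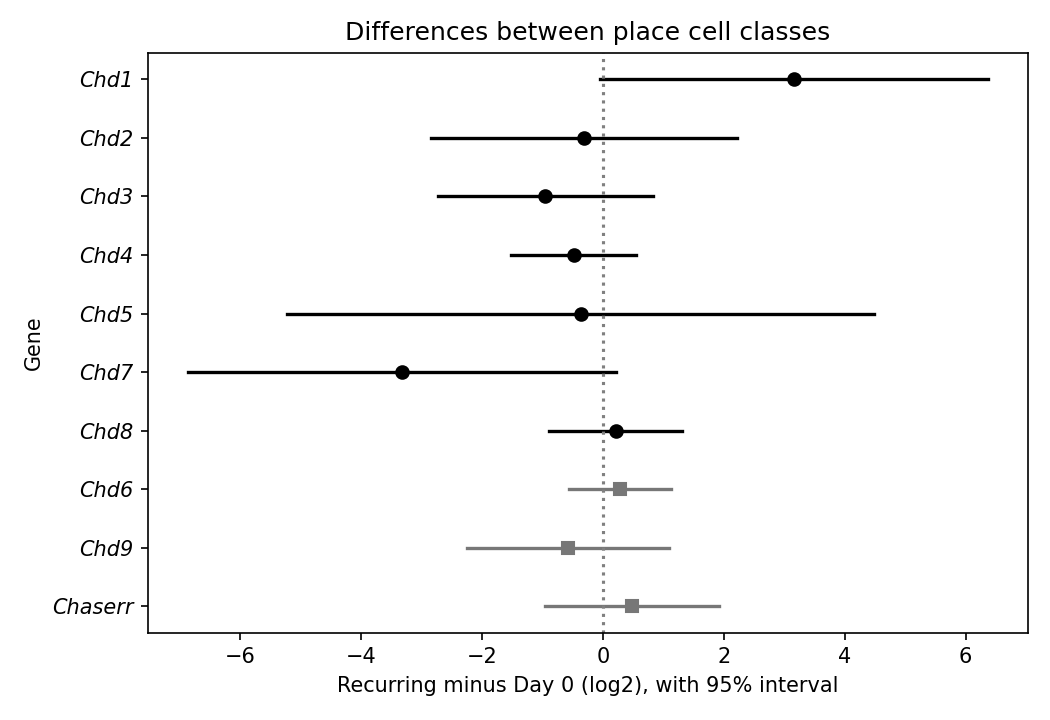
Recurring minus Day 0 differences on the log2 scale for the 7 CHD genes (black circles) and for Chd6, Chd9 and Chaserr (grey squares), with 95% intervals from limma. Every interval spans 0, from the narrow one of Chd6 (-0.56 to 1.13) to the wide one of Chd5 (-5.21 to 4.49).

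Levels were compared between genes only after division by exonic length, which here joins the exons of all annotated transcripts of a gene. That length was 8019 bases for Chd4 and 19093 for Chd6. Before division Chd6 was higher, with means of 3463 in Recurring and 2897 in Day 0 libraries, against 1907 and 2512 for Chd4. The order below therefore depends on the length used, and other lengths were not tested. Over the 8 libraries Chd4 stood first, with 275.5 ± 113.3 normalized counts per kb of exon (SD), followed by Chd6 with 166.6 ± 48.5 and Chd8 with 136 ± 57.2. Chd3 had 57.3 ± 28.2, Chd1 54.3 ± 51.1, Chd9 49.0 ± 28.8 and Chd7 48.6 ± 51.4 normalized counts per kb. The lowest were Chd5 with 25.6 ± 34.4 and Chd2 with 23.9 ± 19.1 normalized counts per kb. Each gene overlapped its neighbour in this order, and the step between Chd8 and Chd3 was the most regular, with Chd8 higher in 7 of 8 libraries. This order pools both classes, and it was not the same within each. By class, Chd4 had 238 ± 123 normalized counts per kb in Recurring libraries and 313 ± 105 in Day 0 libraries (SD, n = 4 each). Chd1 had 82.7 ± 50.3 normalized counts per kb in Recurring libraries and 25.8 ± 37.4 in Day 0 libraries. Chd7 had 21.8 ± 18.6 in Recurring libraries, the lowest mean of the class, and 75.5 ± 62.4 in Day 0 libraries. Chd3 had 39.1 ± 15.7 in Recurring libraries and 75.6 ± 26.9 in Day 0 libraries. The lowest mean in Day 0 libraries was that of Chd5, 21.2 ± 33.6, against 29.9 ± 39.8 in Recurring libraries.

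**Figure D3:**
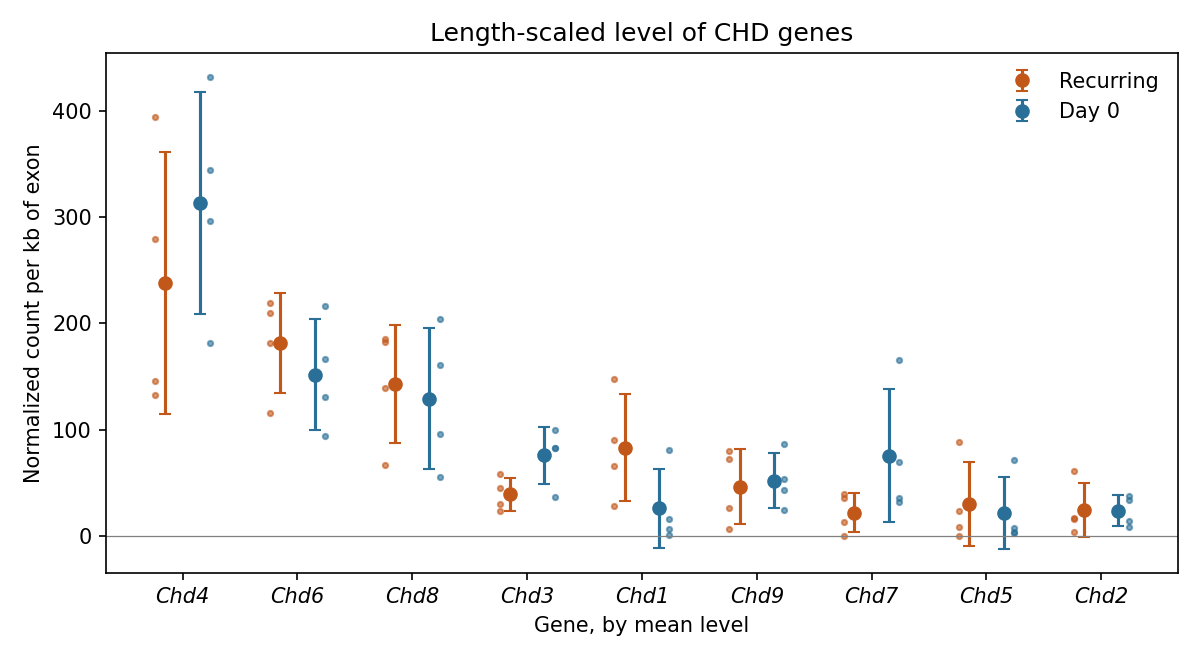
Normalized counts per kb of exon for 9 CHD genes ordered by mean level, with small points for libraries, large points for group means and bars for SD (n = 4 each), Recurring left of Day 0. Chd4, Chd6 and Chd8 stand above the other genes on average, with Chd4 at 238 in Recurring and 313 in Day 0 libraries.

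Shares within the family are given as a description, with no test. The 7 genes took 0.0666% ± 0.0137 of the reads in Recurring libraries and 0.0780% ± 0.0188 in Day 0 libraries (SD, n = 4 each). Chd4 and Chd8 together made up 68.4% ± 2.90 of the reads of the 7 genes in Recurring libraries and 64.7% ± 10.01 in Day 0 libraries. Each pair of means lay closer together than the larger SD of its pair. Within the NuRD motors, where Chd4 was the main one in both classes, it accounted for 76.8% ± 10.6 of the summed level per kb in Recurring libraries and 75.7% ± 11.8 in Day 0 libraries. Chd3 made up 14.5% ± 7.89 in Recurring libraries and 19.9% ± 9.37 in Day 0 libraries. The share of Chd5 was 8.69% ± 9.58 in Recurring libraries and 4.50% ± 6.33 in Day 0 libraries.

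Correlations among the 7 genes across libraries were of both signs. Of their 21 pairs, 8 had a positive and 13 a negative Pearson's r, with a median of -0.111. The highest was between Chd2 and Chd4, with r = 0.649 (exact permutation p = 0.0841) and rho = 0.429 (exact permutation p = 0.299), and r was 0.35 without the 2 libraries farthest from the median of Chd2. The most negative was between Chd2 and Chd7, with r = -0.595 (exact permutation p = 0.134) and rho = -0.762 (exact permutation p = 0.0368, adjusted p = 0.809), and r was -0.386 without the 2 farthest libraries. Over the 22 relations computed, that of Chd2 with Chaserr included, the lowest adjusted p was 0.88 for r and 0.809 for rho. These pairs share the 8 libraries and their depths, and both classes are pooled in them.

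The NuRD complex joins a CHD motor to histone deacetylases, methyl-CpG-binding proteins and scaffolds. Of its 12 other subunit genes 10 were tested, and limma called 0 of them. Their mean log2 values were higher in Recurring libraries for 6 and lower for 4, with a median difference of 0.14, beside 0.005 over all tested genes. Gatad2a, which links the deacetylase and motor parts of the complex, was the 1 of 10 with an unadjusted p under 0.05, beside 3.62% of all tested genes. Gatad2a had 193, 400, 458 and 320 normalized counts in Recurring replicates 1 to 4, against 8.18, 597, 1.19 and 1.002 in Day 0 replicates 1 to 4. Day 0 replicate 2 was again the library that lay with the Recurring values, as for Chd1. It was the only Day 0 library at 10 or more, so Gatad2a passed the filter through the Recurring libraries, where it is high. Its p is therefore given as a description only. The Gatad2a difference was 4.71 ± 2.20 (SE), with an unadjusted p of 0.0474 in limma, where the adjusted p was 0.981. The unadjusted p in limma was 0.0619 to 0.0988 when any library other than Day 0 replicate 2 was left out, and 0.211 with library weights. The difference was 3.84 without Day 0 replicate 4 and 6.57 without Day 0 replicate 2.

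The deacetylase genes Hdac1 and Hdac2 had differences of 2.35 ± 2.40 and 1.63 ± 1.79 (SE). The scaffold Mta1 had a difference of 1.79 ± 1.85, and the methyl-CpG-binding-domain gene Mbd3 one of -1.499 ± 2.30. For the histone chaperones Rbbp4 and Rbbp7 the differences were 0.09 ± 1.41 and -0.72 ± 0.78. Each of these 6 differences was smaller than its standard error, and none passed the test.

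Partners of CHD proteins include the histone chaperone FACT, the PAF1 elongation complex and the core of the H3K4 methyltransferases. Of 15 such genes 14 were tested, 7 with a higher and 7 with a lower mean in Recurring libraries and a median difference of -0.01, and limma called 0 of them. Ssrp1, a FACT subunit, had 1596, 1478, 1574 and 1924 normalized counts in Recurring replicates 1 to 4, against 981, 1023, 486 and 605 in Day 0 replicates 1 to 4. It was the 1 of 14 with no overlap, beside 2.41% of all tested genes, and its difference was 1.15 ± 0.55 (SE), with an unadjusted p of 0.051 in limma, where the adjusted p was 0.981. The other FACT subunit, Supt16, had a difference of 0.23 ± 2.39 (SE). Ctr9, a PAF1 complex subunit, had 1149, 372, 464 and 1068 normalized counts in Recurring replicates 1 to 4, against 84.0, 66.2, 13.1 and 825 in Day 0 replicates 1 to 4. Day 0 replicate 4 was the single library of its class that overlapped the Recurring values. The Ctr9 difference was 2.91 ± 1.30 (SE), with an unadjusted p of 0.0393 in limma, the 1 of 14 under 0.05, beside 3.62% of all tested genes, where the adjusted p was 0.981. It was 2.02 without Day 0 replicate 3 and 3.98 without Day 0 replicate 4, and its unadjusted p in limma was above 0.05 with 6 of the 8 libraries left out in turn. Cdc73, of the same complex, had a difference of -1.94 ± 1.13 (SE), opposite in sign to Ctr9, and -1.05 without Recurring replicate 1. Ash2l, of the methyltransferase core, had 16.1, 3.23, 7.42 and 449 normalized counts in Recurring replicates 1 to 4, against 417, 648, 412 and 50.1 in Day 0 replicates 1 to 4, and a difference of -3.59 ± 2.03 (SE), which was -5.02 without Recurring replicate 4. Neither passed the test.

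Other ATPases that remodel chromatin were set beside the CHD genes. Of 15 genes 14 were tested, 4 with a higher and 10 with a lower mean in Recurring libraries, with a median difference of -0.62, and limma called 0 of them. These counts and the median take in Hells (-6.09), whose place among the tested genes came from the Day 0 libraries alone. Hells, a helicase required for normal DNA methylation, had 3.72, 0, 0 and 0 normalized counts in Recurring replicates 1 to 4, against 219, 506, 81.3 and 10.02 in Day 0 replicates 1 to 4. It passed the filter only through the Day 0 libraries, where it is high and where replicate 4 lay just above the minimum of 10, so no test is given for it. It was below the filter with 6 of the 8 libraries left out in turn. The ISWI motor Smarca5 had a difference of -3.22 ± 1.74 (SE), which was -1.35 without Recurring replicate 1, where Smarca5 had 1 read, and -4.71 without Recurring replicate 4. The BAF motors Smarca4 and Smarca2 had differences of -1.17 ± 0.65 and 0.88 ± 0.80, and the helicase-like factor Hltf one of 0.89 ± 0.58. None of these 4 passed the test.

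**Figure D4:**
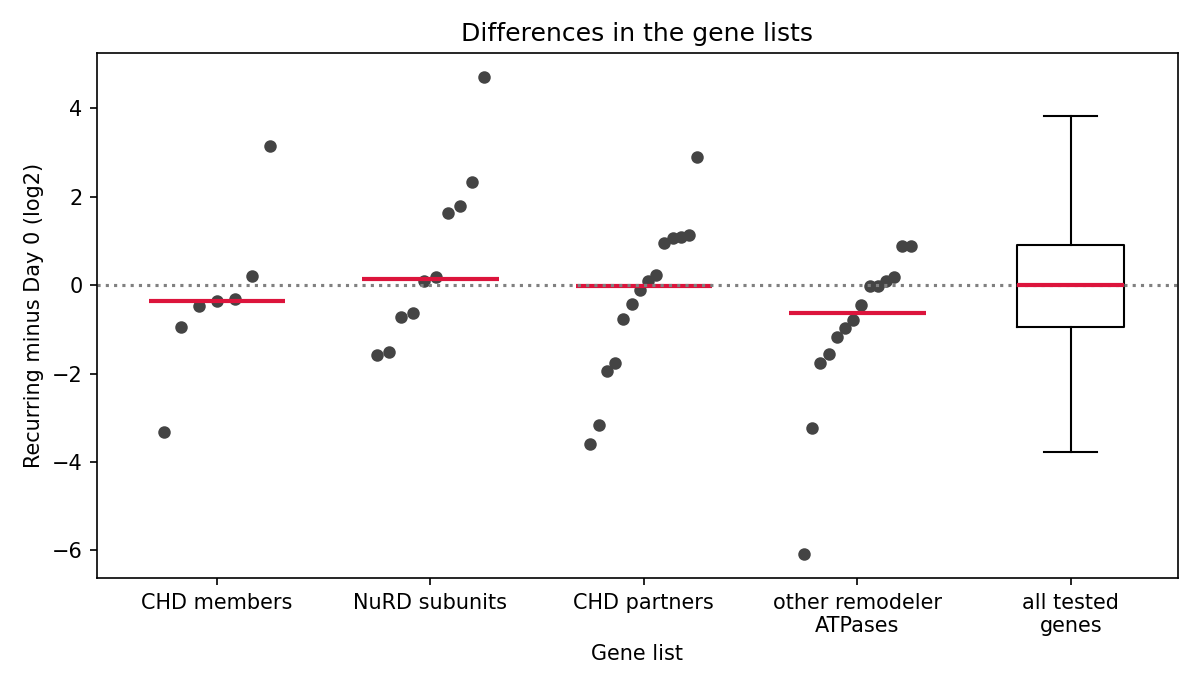
Recurring minus Day 0 differences on the log2 scale for the tested genes of each list, 1 point per gene, with red lines at medians, beside a box for all 11078 tested genes (quartiles, whiskers around the central 95% of genes). The medians of the CHD members (-0.36), NuRD subunits (0.14), CHD partners (-0.01) and other ATPases (-0.62, with Hells counted) lie inside the box. Gatad2a, which passed the filter through the Recurring libraries, lies above the whiskers. Hells, which passed the filter only through the Day 0 libraries, lies below them.

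For each member, the gene whose log2 values were most like its own was sought among 4693 genes with 10 or more normalized counts in all 8 libraries, with predicted genes (Gm and Rik symbols) passed over. Chd7 was most like Rnf20, a ubiquitin ligase of histone H2B, with r = 0.98, and Rnf20 also had its lowest value, 57.3 normalized counts, in Recurring replicate 2. Chd3 was most like Pnma8b with r = 0.964, Chd4 most like R3hdm4 with r = 0.963 and Chd8 most like Wipf3 with r = 0.95. Chd1 was most like the sorting nexin gene Snx2 with r = 0.943, and Chd5 most like Crtac1 with r = 0.935. Chd2 was most like the mitochondrial ribosomal protein gene Mrpl45, with r = 0.899. Each r is the highest of all those searched over 8 libraries and is given as a description.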

How the data were processed

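Nuclear RNA libraries were made with SMART-Seq mRNA LP, per the labels' protocols. Per the submitters' processing notes, STAR, HTSeq and GRCm39 were used, with versions not given in the sources used here. The authors deposited a scaled signal per gene and library, neither log-transformed nor corrected for depth. Within each gene the values were whole reads times a constant (median 1.11, range 0.109 to 133), and dividing it out gave whole reads within 0.1 read for 95910 of 95910 values above 0. The recovery step was checked on simulated data of 15056 genes, of which 100% were recovered. Every gene in the table was above 0 in at least 3 libraries.

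Depth was corrected with a median-of-ratios size factor per library (0.837 to 1.61). Recurring was compared with Day 0 on log2(normalized count + 1) with limma 3.58.1 (R 4.3.3), letting the variance follow a trend in level, Benjamini-Hochberg adjustment over 11078 genes and a threshold of 0.05. Genes needed a normalized count of 10 in at least 4 libraries. Correlations used exact 2-sided permutation tests. Exonic lengths and overlaps came from GENCODE vM21, on an earlier build than the reads. Alternatives were other pseudocounts, filters, scalings and variance models, voom, and leaving out each library. Intervals for 0 reads cover counting error only.

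The members, gene lists and tests were chosen with earlier results of these data known. Named were all members, fixed relatives and subunits, the 4 genes of each list with the smallest unadjusted p, and the gene most like each member. Supt16, Zbtb20, Camk2a, C1qb, Ctss, Slc1a3, Plpp3 and Aldh1l1 were named after their values were seen. The replicate numbers follow the order of deposit and pair no libraries. Adnp was not analysed here.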

Additional observations from a re-analysis of the deposited data

How the results depend on the processing

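Of 450 differences of 26 genes under 18 alternatives, 438 kept their direction and their side of the adjusted p threshold, and 12 changed direction. limma called 0 genes in the reported fit and 2 without a variance trend. Genes with an unadjusted p under 0.05 numbered 401 as reported, 650 with no filter and 185 with the filter in all 8 libraries. Members under that p numbered 0 as reported, 2 with a pseudocount of 8, 1 with no filter and 0 to 2 with 1 library left out. Genes with no overlap numbered 267 as reported and 492 to 617 with 1 library left out, where fewer libraries have to separate.

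With a library left out, differences that changed direction ranged from -0.96 to 0.38 for Chd2, -1.60 to 1.63 for Chd5, -0.14 to 0.55 for Chd8, -1.04 to 0.18 for Chd9, -1.30 to 0.23 for Rbbp7 and -0.62 to 1.22 for Rbbp4. Chd5 was 0.24 with a pseudocount of 8, and Rbbp4 was -0.54 with voom. The cause was not tested. Chd1 kept a positive difference, 1.79 to 4.28, and Chd7 a negative one, -4.24 to -1.20, with each library left out. The median over all genes moved to 0.13 without Recurring replicate 1 and to -0.15 without Day 0 replicate 4. No paired analysis was possible because the labels give no shared replicate numbers. With 4 libraries per class, a median standard error of 1.78 and 45.6% of tested genes at 0 reads in at least 1 library, small differences were not detectable for most genes.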

Other observations

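Chd1l, a relative of the CHD genes that lacks chromodomains and binds poly(ADP-ribose), was below the filter and was not tested. It had 0, 246, 0 and 197 reads in Recurring replicates 1 to 4, against 0, 3, 0 and 2 reads in Day 0 replicates 1 to 4. The 2 Recurring libraries with reads were those with the 2 highest sums of microglia markers, 4331 in replicate 4 and 1861 in replicate 2, and the part of those cells was not tested. Srcap, the motor that exchanges histone H2A.Z and also below the filter, had 0, 7.27, 94.3 and 436 normalized counts in Recurring replicates 1 to 4, against 0, 1.59, 0 and 0 in Day 0 replicates 1 to 4. Both genes were picked after their values were seen.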
